A study of Mus musculus with 6 samples.

Results

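Semaphorins, ephrins and Slits are extracellular cues first described as guides of growing axons, and plexins, neuropilins, Eph receptors and Robos are the receptors that read them. All gene symbols of these families in the count files were taken by name, irrespective of their values. The families themselves were chosen with earlier results of these data known. The rule gave 60 of the 26264 genes listed: 7 secreted class 3 semaphorins, 13 semaphorins of classes 4 to 7, 2 neuropilins, 9 plexins, 8 ephrins, 14 Eph receptors, 3 Slits and 4 Robos. Of these 60 members, 58 had at least 1 count in a library and 51 averaged 20 or more normalized counts (counts scaled to the same library size) over all libraries. The 9 members below that mean were Epha5, Epha6, Epha8, Epha10, Sema5b, Sema6a, Robo2, Robo3 and Robo4, with Epha6 and Robo4 at 0 counts in every library.

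The members were measured by bulk RNA sequencing in 6 libraries, 1 per treatment and day. The cells were brown preadipocytes of wild-type Bl6N mice, labelled as coming from the stromal vascular fraction of interscapular brown fat (iBAT) and immortalized with the SV40 large T antigen, an oncoprotein that keeps cells dividing. They received 5.5 nM FGF8, a paracrine fibroblast growth factor, for 48 h, or were left untreated (called vehicle in the series description), and were then harvested (day 0) or differentiated into adipocytes without FGF8 and harvested on day 3 or day 9. Per the methods, days run from the end of the FGF8 exposure, so that day 3 and day 9 stand for 2 days of induction followed by 1 or 7 days in differentiation medium, and the last harvest is labelled day 7. The samples' growth protocol is written for white preadipocytes and the treatment text lists other FGFs, whereas the titles and the series description name brown cells and FGF8. All groups are labelled with the same line and share the immortalization, with 1 library each, so a difference between treatments on a given day has no replicate check and carries no p-value.

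Semaphorins signal through plexins, whose intracellular part inactivates Rap GTPases and alters the actin skeleton and integrin adhesion. Secreted class 3 semaphorins mostly need a neuropilin as the binding subunit beside the plexin, while the membrane-bound classes bind plexins directly. Ephrins and Eph receptors are both membrane-bound and signal at cell contacts in both directions, and Slits are large secreted proteins that bind Robos and repel cells and axons. In adipose tissue these cues are known from nerve and vessel ingrowth, and fragments of Slit2 and Slit3 are known to promote thermogenesis.

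The libraries held 16403254 to 38551551 counts. The libraries of day 0 differed from the later ones in a few genes. Xist, the RNA that silences an X chromosome, had 2530 and 5837 counts at day 0 and 7 to 26 later, and Ifi202b, an interferon-inducible gene, had 10511 and 5711 counts at day 0 and 0 or 1 later. These genes were picked after their values were seen, and the Y-linked Ddx3y was expressed in all 6 libraries. A difference between day 0 and a later day therefore cannot be told apart from a difference in the source of the cells, and the tests of FGF8 over the days and of day 9 against day 3 are given with and without the day 0 libraries. The 2 day 0 libraries also differed from each other in Xist (3716 against 7473 normalized counts) and Ifi202b (15439 against 7311), untreated against FGF8. Gbp2b, picked likewise, had 7105 against 1197, and Ddx3y had 2507 against 2663. The part of the cells' source in the FGF8 differences of day 0 was not tested. The 4 FGF feedback genes Dusp6, Spry4, Etv4 and Etv5 were higher in the FGF8 library at day 0, with log2 fold changes of 3.91, 4.12, 4.41 and 3.12. The 6 preadipocyte markers summed to 124333 normalized counts without and 30384 with FGF8 at day 0. The sums were 33592 and 8960 at day 3 and 27752 and 5668 at day 9. At day 0 they rested mainly on Pdgfra (68261 against 9680) and Ly6a (28641 against 1516), untreated against FGF8. Cd34, Dlk1 and Dpp4 were also lower with FGF8 at day 0, but Thy1 was higher (2773 against 4427). The 6 adipocyte markers summed to 8840 without and 2491 with FGF8 at day 0. They were higher with FGF8 later, at 350180 and 602419 at day 3 and 477181 and 549817 at day 9.

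Other cell types were checked by their markers. The endothelial genes Pecam1, Cdh5, Cldn5, Tie1 and Emcn stayed at or below 12.8 normalized counts, and the 6 endothelial markers, mainly through Tek, summed to 342, 80.2 and 174 in the untreated and 65.3, 15.4 and 35.0 in the FGF8 libraries of days 0, 3 and 9. The macrophage genes Adgre1 and C1qa were at 0, and the 6 macrophage markers, mainly Cd68 and Csf1r, summed to 92.5, 117 and 146 in the untreated and 58.9, 98.3 and 111 in the FGF8 libraries. The 6 Schwann and neural markers summed to 1154, 7775 and 4865 in the untreated and 282, 2372 and 761 in the FGF8 libraries, mainly Ngfr outside the FGF8 library of day 0, with Elavl4 at 0 in 5 libraries and Sox10 at 0 to 21.3. The 5 mural markers summed to 6693 to 9294 in the untreated and 4179 to 4719 in the FGF8 libraries, where Pdgfrb, which preadipocytes also express, was lower on each day and Cspg4 higher. Each of these 4 lists was thus lower with FGF8 on each day, and their part in the results was not tested. The 5 brown adipocyte markers summed to 355.5, 3604 and 36187 in the untreated and 98.6, 7469 and 48858 in the FGF8 libraries. At day 9 Cidea and Ppargc1a were higher with FGF8, while Dio2, Cox8b and Elovl3 were lower. The 5 proliferation markers summed to 14954 to 48460, highest at day 0 and above untreated in each FGF8 library. In bulk RNA, fewer cells of a type and less RNA per cell cannot be told apart.

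Per transcript length, the guidance families together made up 1130 TPM (transcript share corrected for length, scaled to a fixed sum) in the untreated preadipocytes and 995 in the FGF8-treated ones. At day 3 the sums were 982 and 569 TPM, and at day 9 they were 697 and 550 TPM. In untreated cells of day 0 the most abundant member was Plxnb2 with 187 TPM, a receptor for class 4 semaphorins, followed by Nrp1 with 177, Sema3c with 98.1 and Slit2 with 88.9 TPM. In the FGF8 library of the same day Sema7a led with 223 TPM, ahead of Plxnb2 with 115, Nrp1 with 65.5 and Sema5a with 61.5 TPM. The classes 4 to 7 of semaphorins thus held 7.00% of all guidance transcripts in the untreated and 35.2% in the FGF8-treated preadipocytes, while the class 3 semaphorins held 16.2% and 6.85%. At day 3 the Slits were the family with the widest gap, 191 against 58.9 TPM. At day 9 the receptor Nrp1 had the highest level in both libraries, with 80.4 TPM in untreated and 61.8 TPM in FGF8-pretreated cells.

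**Figure D1:**
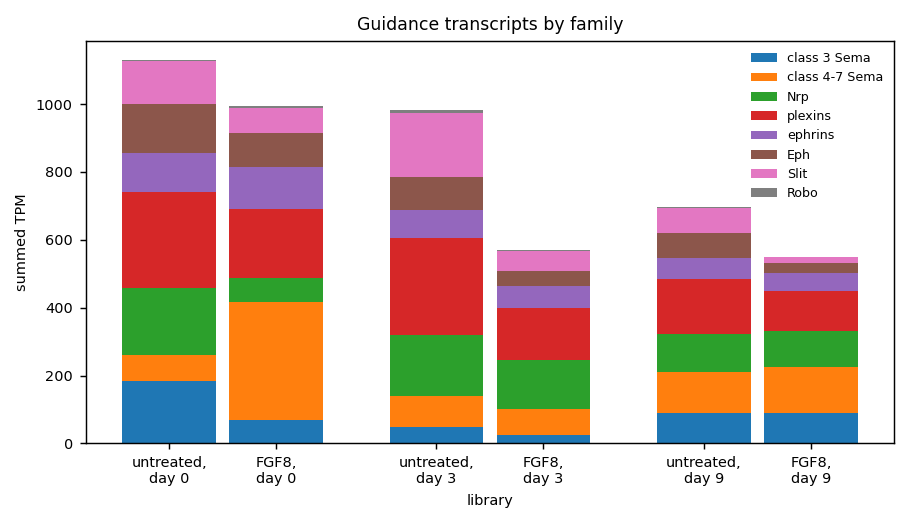
Summed TPM (linear axis from 0) of the 8 guidance families in each of the 6 libraries, 1 library per bar, so no error bar is drawn. The FGF8 bar of day 0 carries 350 TPM of class 4 to 7 semaphorins where the untreated bar has 79.1, and the 2 bars of day 3 reach 982 TPM untreated and 569 TPM with FGF8.

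Among the members, values lower with FGF8 outnumbered higher ones on each day. With a 2-fold rule on the normalized counts plus 1, among members whose pair averaged 20 or more, 15 of 49 were lower at day 0 (10.8% of all genes tested) and 5 were higher (7.27% of all genes). At day 3, 16 of 46 were lower (12.1% of all genes) and 1 was higher (3.8%), and at day 9, 12 of 47 were lower (8.74%) and 1 was higher (1.12%). The median log2 fold change of the 51 members was -0.39, -0.78 and -0.53 at days 0, 3 and 9, beside 0.04, 0.07 and 0.07 for all genes. Of the 51 members, 23 were lower in FGF8 in all 3 pairs (21.6% of all genes) and 4 were higher in all 3 (31.2%): Sema4d, Sema4g, Plxnd1 and Efna5. At least 2-fold lower in all 3 pairs were 5 members (3.79% of all genes), Sema3d, Sema3e, Epha4, Ephb3 and Slit3, and none was 2-fold higher in all 3 (0.181%). The day 3 pairs of Sema3e and Epha4 averaged below 20 normalized counts, with counting intervals that include no difference. The day 9 pair of Epha4 was below that mean as well. By family, the Eph receptors had medians of -1.04, -0.93 and -1.12, with 9 of 10 below 0 at each day, and the plexins had -0.23, -0.77 and -0.75. Of all 13256 genes averaging 20 or more over the libraries, 6085, 5974 and 5560 were below 0 at days 0, 3 and 9. The summed preadipocyte, endothelial, macrophage, Schwann and neural, and mural markers were lower with FGF8 on each day as well. The summed adipocyte and brown adipocyte markers were lower with FGF8 at day 0 and higher at days 3 and 9. The part of any of these markers in these counts was not tested.

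**Figure D2:**
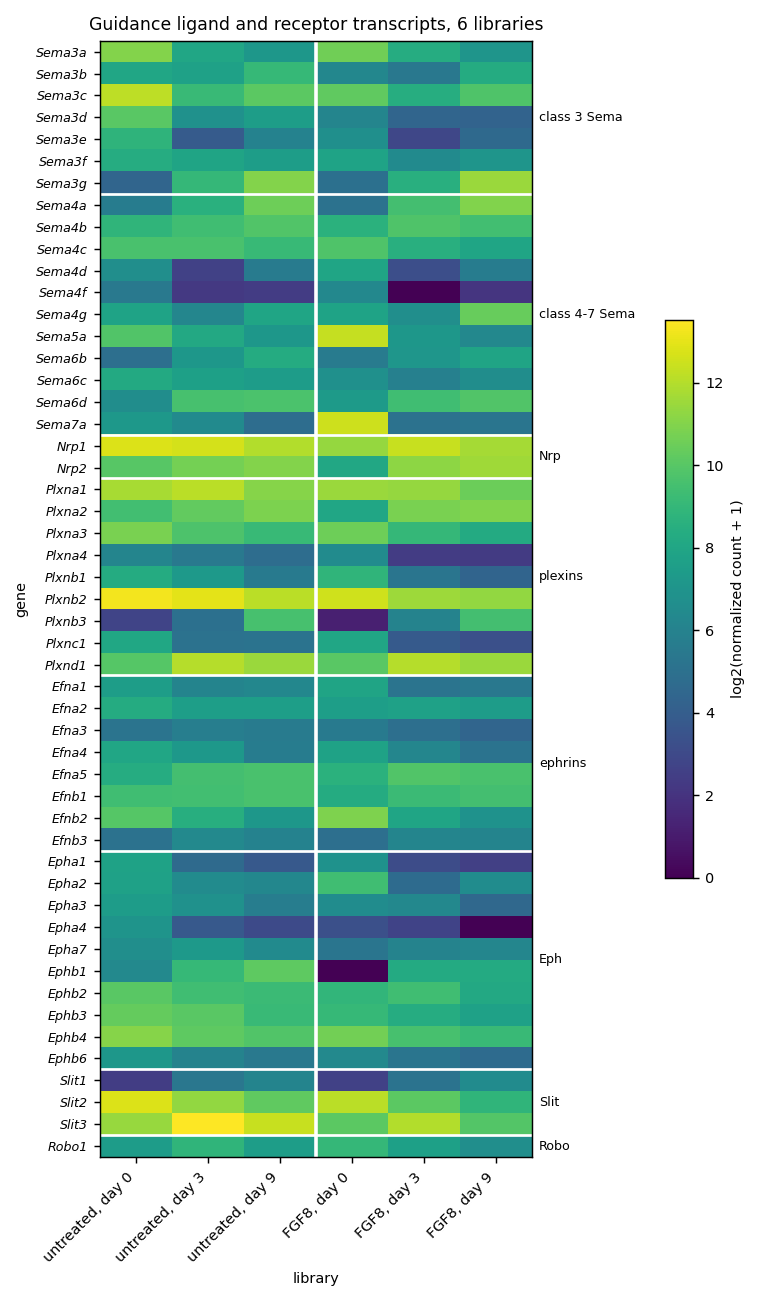
Colour gives log2(normalized count + 1) of the 51 members that averaged 20 or more normalized counts, with genes as rows grouped by family and the 6 libraries as columns, 1 library per column. Plxnb2, Nrp1, Slit2 and Slit3 are bright in most columns, Sema7a and Sema5a are brightest in the FGF8 column of day 0, and Sema3g, Sema4a and Plxnb3 brighten from day 0 to day 9 in both treatments.

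For a difference common to days 0, 3 and 9, edgeR's quasi-likelihood test was run with day as a block and Benjamini-Hochberg adjustment over all 14569 genes tested. In it the days stand in for replicates and a response that varies between days counts as error. Of 52 members tested, 2 were lower (1.25% of all genes tested) and 0 were higher (0.0206%). At an unadjusted p under 0.05 there were 20 lower (12.9% of all genes) and 0 higher (10.3%). DESeq2 called 12 members lower and 0 higher, but its share of all genes was not computed. Sema3d, a secreted class 3 semaphorin, had a log2 fold change of -3.31 ± 0.36 (SE), adjusted p = 0.0448, by edgeR, and was lower in 3 of 3 pairs. Ephb3, a receptor tyrosine kinase for ephrin-B ligands, had -1.51 ± 0.17 (SE), adjusted p = 0.0451, by edgeR, and was also lower in 3 of 3 pairs. The next members, Slit3 (-1.82 ± 0.25 (SE), adjusted p = 0.0561) and Slit2 (-1.10 ± 0.17 (SE), adjusted p = 0.0657), missed the edgeR threshold. Without the libraries of day 3 or without those of day 9, no member was called. There, 13 and 10 members were lower at an unadjusted p under 0.05, with the share of all genes not computed.

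The members at least 2-fold higher in FGF8-treated preadipocytes at day 0 were Sema7a, Sema5a, Epha2, Robo1 and Sema4d. Values below are normalized counts in the order of days 0, 3 and 9, and gene loci are from GENCODE M39 on GRCm39. Sema7a (chr9:57847375-57870151, plus strand), a semaphorin held by a lipid anchor that binds plexin C1 and beta1 integrins, had 148, 89.1 and 27.7 in the untreated libraries and 5792, 33.7 and 37.4 in the FGF8 libraries. The FGF8 library of day 0 stood 39-fold above its untreated counterpart, with a log2 fold change of 5.28 (95% counting interval 5.00 to 5.59), and above all other libraries. These intervals cover counting error only and not the spread between cultures. At day 3 the log2 fold change was -1.38 (95% counting interval -1.96 to -0.85), with the FGF8 library below the untreated one. Sema5a (chr15:32244919-32696487, plus strand), a transmembrane semaphorin with thrombospondin repeats, had 919.5, 285 and 141 in the untreated libraries and 5218, 145 and 78.0 in the FGF8 libraries. Its log2 fold change at day 0 was 2.5 (95% counting interval 2.38 to 2.63), and it was lower with FGF8 at days 3 and 9. Exons of Sema5a share 631 bases with the antisense RNA gene Snhg18, which had 499 against 515 normalized counts at day 0, untreated against FGF8.

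Epha2 (chr4:141028540-141056695, plus strand), the main receptor for ephrin-A1, had 216, 91.6 and 76.7 in the untreated libraries and 662, 25.3 and 93.5 in the FGF8 libraries. Its log2 fold change was 1.61 (95% counting interval 1.35 to 1.89) at day 0 and -1.82 (95% counting interval -2.48 to -1.26) at day 3, so the 2 libraries changed order. Robo1 (chr16:72105194-72844378, plus strand), the only Robo that averaged 20 or more normalized counts, had 176, 466 and 182 in the untreated libraries and 517, 206 and 101 in the FGF8 libraries. It was likewise above untreated at day 0, at 1.55 (95% counting interval 1.26 to 1.86), and below at day 3, at -1.17 (95% counting interval -1.40 to -0.95). Sema4d, the ligand of plexin B1, had 103, 5.1 and 48.3 in the untreated libraries and 243, 8.4 and 51.2 in the FGF8 libraries. Its difference at day 0 was 1.23 (95% counting interval 0.84 to 1.66), and at day 9 the libraries were close. Exons of Sema4d share 1766 bases with Secisbp2 on the other strand, which had 473 against 474 normalized counts at day 0. Opposite 2-fold differences on different days were seen in 3 of 48 members (1.1% of all genes), Sema7a, Epha2 and Robo1.

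FGF receptors act on transcription through ETS factors and AP-1, and promoters of 4 members past 2-fold at day 0 are shown. Among members whose pair averaged 100 or more, these are the 2 with the largest increase, Sema7a and Sema5a, the 1 with the largest decrease, Sema3d, and Sema4d, picked after the matches were seen as the only higher member with one. The sequences are the 250 bases before the start of transcription in RefSeq on GRCm38.p6, an earlier build than that of the counts, and 53 of the 60 members had an entry. The ETS motif was searched as CCGGAA and the AP-1 motif as TGANTCA, on both strands, with matches in capitals. Of all 32851 promoters in the table, 12% held the ETS motif and 6.75% the AP-1 motif. The Sema7a promoter lies at chr9:57939862-57940111 on the plus strand, Sema5a at chr15:32244563-32244812 on the plus strand, the Sema4d promoter with a match at chr13:51748811-51749060 on the minus strand and Sema3d at chr5:12382916-12383165 on the plus strand.
Sema7a: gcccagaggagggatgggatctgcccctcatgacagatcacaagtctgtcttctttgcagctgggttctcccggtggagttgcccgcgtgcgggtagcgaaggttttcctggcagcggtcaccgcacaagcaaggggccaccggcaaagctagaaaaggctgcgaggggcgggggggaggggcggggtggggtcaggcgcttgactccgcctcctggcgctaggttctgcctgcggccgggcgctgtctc
Sema5a: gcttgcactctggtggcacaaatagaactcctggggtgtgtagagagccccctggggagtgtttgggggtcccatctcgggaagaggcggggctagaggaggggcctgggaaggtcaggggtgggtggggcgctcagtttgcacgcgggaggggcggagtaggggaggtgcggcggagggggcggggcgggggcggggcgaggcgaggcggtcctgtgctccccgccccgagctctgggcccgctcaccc
Sema4d: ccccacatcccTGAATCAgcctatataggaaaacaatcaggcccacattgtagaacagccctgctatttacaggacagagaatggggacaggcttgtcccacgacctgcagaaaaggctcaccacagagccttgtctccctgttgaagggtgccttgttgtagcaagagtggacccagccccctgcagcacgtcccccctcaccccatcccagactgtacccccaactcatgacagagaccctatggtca
Sema3d: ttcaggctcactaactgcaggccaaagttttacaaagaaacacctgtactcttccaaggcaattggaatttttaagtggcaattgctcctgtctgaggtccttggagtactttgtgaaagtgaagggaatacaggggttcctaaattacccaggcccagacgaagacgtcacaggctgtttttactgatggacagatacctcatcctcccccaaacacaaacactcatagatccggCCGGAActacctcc
The Sema4d promoter shown held an AP-1 match, with A at the open base N, whose first base was at -239 from the start. The other Sema4d promoters listed held neither motif. The Sema3d promoter held an ETS match at -14. Sema7a and Sema5a held neither. Over the 5 members that were 2-fold higher at day 0 and averaged 100 or more normalized counts, 0 of 7 promoters held the ETS motif and 1 of 7 the AP-1 motif. Over the 12 members that were 2-fold lower by the same rule, 11 had an entry, and 2 of their 12 promoters held the ETS motif, those of Sema3d and Ephb2, and 0 the AP-1 motif.

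Class 3 semaphorins were mostly lower with FGF8, with medians of -1.77, -1.04 and -0.46 over 7 members at days 0, 3 and 9. Below 0 were 6 of 7 at each day, beside 6085, 5974 and 5560 of all 13256 genes. Sema3d (chr5:12433124-12638929, plus strand), which acts through neuropilin 1 and plexin D1, had 1083, 116 and 186 in the untreated libraries and 69.1, 20.4 and 18.7 in the FGF8 libraries. Each FGF8 library was below the untreated library of its day, and the log2 fold changes were -3.95 (95% counting interval -4.40 to -3.57), -2.45 (95% counting interval -3.16 to -1.89) and -3.25 (95% counting interval -4.0 to -2.70). Sema3c, a ligand of both neuropilins, had 4674, 572 and 1110 in the untreated libraries and 1201, 346 and 880.4 in the FGF8 libraries. It was lower with FGF8 mainly at day 0, at -1.96 (95% counting interval -2.07 to -1.86), and the libraries drew closer afterwards (-0.72 and -0.33).

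Sema3e, which binds plexin D1 without a neuropilin, had 445, 14.0 and 63.2 in the untreated libraries and 106, 6.3 and 23.6 in the FGF8 libraries, and its log2 fold changes were -2.06, -1.04 and -1.38, the one of day 3 on a mean below 20. Sema3b, a ligand of both neuropilins, had 260.0, 214 and 540.2 in the untreated libraries and 75.5, 42.1 and 322 in the FGF8 libraries, with log2 fold changes of -1.77, -2.32 and -0.74. Sema3f, a ligand of neuropilin 2, had 332, 240.5 and 184 in the untreated libraries and 230.4, 87.7 and 133 in the FGF8 libraries, and only the pair of day 3 passed 2-fold. Sema3a, the prototype repellent and a ligand of neuropilin 1, had 2058, 252 and 141 in the untreated libraries and 1566, 333 and 132 in the FGF8 libraries, and no pair passed 2-fold. Sema3g, a ligand of neuropilin 2, had 20.6, 514 and 2043 in the untreated libraries and 30.7, 374 and 2912 in the FGF8 libraries. Of the 7 members it alone was above untreated at days 0 and 9, at day 0 with an interval that includes no difference.

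Both neuropilins were lower in FGF8-treated preadipocytes. Nrp1 (chr8:129085085-129231082, plus strand), which also binds VEGF, had 7294, 6515 and 4058 in the untreated libraries and 2632, 5318 and 3322 in the FGF8 libraries, so the FGF8 library of day 0 was the lowest of the 6. Its log2 fold change was -1.47 (95% counting interval -1.55 to -1.40) at day 0 and -0.29 and -0.29 later. Nrp2, the receptor of Sema3f, had 1041, 1635 and 2077 in the untreated libraries and 273, 2396 and 3119 in the FGF8 libraries, and its order turned: -1.93 (95% counting interval -2.16 to -1.71) at day 0, then 0.55 (95% counting interval 0.46 to 0.64) and 0.59 (95% counting interval 0.52 to 0.66) at days 3 and 9.

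The semaphorins of classes 4 to 7 included both higher and lower members. Over 11 members their median log2 fold changes were 0.71, -0.23 and -0.31. Sema4c, a ligand of plexin B2, had 799, 785 and 564 in the untreated libraries and 899, 368 and 244 in the FGF8 libraries. Its log2 fold change was 0.17 (95% counting interval 0.01 to 0.33) at day 0, and it was 2-fold lower with FGF8 afterwards, at -1.09 (95% counting interval -1.26 to -0.92) and -1.21 (95% counting interval -1.41 to -1.01). Sema6c, a ligand of A-type plexins, had 299.6, 208 and 177 in the untreated libraries and 110.1, 58.3 and 96.7 in the FGF8 libraries, below untreated in 3 of 3 pairs and past 2-fold at days 0 and 3.

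Sema4g (chr19:44977540-44991836, plus strand) was the only member 2-fold higher at day 9. It had 226, 73.8 and 246 in the untreated libraries and 232, 103 and 1351 in the FGF8 libraries, and the FGF8 library of day 9 stood above the other 5, with a log2 fold change of 2.46 (95% counting interval 2.29 to 2.63). Its exons share 1181 bases with Mrpl43, a mitochondrial ribosomal protein gene on the other strand, and the strand setting of the counting is not stated. Mrpl43 had 721 against 862 normalized counts at day 9, untreated against FGF8. Sema4a, which binds plexins of the B and D groups, had 49.9, 384 and 1465 in the untreated libraries and 33.3, 711 and 2003 in the FGF8 libraries, and was above untreated at days 3 and 9 by less than 2-fold. Sema6d, a ligand of plexin A1, had 99.9, 782 and 833 in the untreated libraries and 166, 668 and 925 in the FGF8 libraries, with no pair past 2-fold. Sema4b, Sema4f and Sema6b also stayed within 2-fold wherever the mean of a pair reached 20 normalized counts.

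Among plexins, Plxnb2 and, later, Plxnb1 were lower with FGF8, and the intervals of Plxnd1 included 0 on each day. Plxnb2 (chr15:89039749-89065211, minus strand) had 10022, 8040 and 4414 in the untreated libraries and 6029, 3022 and 2624 in the FGF8 libraries. Its untreated libraries were above the FGF8 library of the same day on all 3 days, with log2 fold changes of -0.73, -1.41 and -0.75. Plxnb1, the Sema4d receptor, had 317, 159 and 45.4 in the untreated libraries and 454, 37.9 and 19.5 in the FGF8 libraries. It was slightly above untreated at day 0 (0.52) and below at day 3, at -2.04 (95% counting interval -2.56 to -1.60), and at day 9, at -1.18 (95% counting interval -1.96 to -0.52). Plxnd1, the Sema3e receptor known from vessel patterning, had 992, 4152 and 2829 in the untreated libraries and 1077, 4215 and 2836 in the FGF8 libraries, and its 3 log2 fold changes lay at 0.12, 0.02 and 0.00, with the widest interval from -0.03 to 0.27.

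The A-type plexins differed from each other. Plxna2, a receptor of class 3 and class 6 semaphorins, had 687, 1261 and 1830 in the untreated libraries and 254, 1791 and 1998 in the FGF8 libraries, lower with FGF8 at day 0, at -1.44 (95% counting interval -1.69 to -1.20), and not later. Plxna1 and Plxna3, co-receptors of class 3 semaphorins, were lower in 3 of 3 pairs without passing 2-fold, at -0.23, -0.73 and -0.57 and -0.30, -0.77 and -0.88. Plxna4, a receptor of the same classes, had 70.5, 43.3 and 27.7 in the untreated libraries and 92.2, 4.2 and 4.1 in the FGF8 libraries, few counts, with a log2 fold change of 0.38 (95% counting interval -0.16 to 0.94) at day 0 and lower values with FGF8 at days 3 and 9. Plxnc1, the Sema7a receptor, had 263, 33.1 and 34.8 in the untreated libraries and 257, 13.3 and 8.9 in the FGF8 libraries. Its log2 fold change was -0.03 (95% counting interval -0.33 to 0.27) at day 0, when Sema7a was 39-fold higher, and it was past 2-fold lower at days 3 and 9. Plxnb3, a Sema5a receptor, had 5.9, 30.5 and 773 in the untreated libraries and 1.3, 65.3 and 719.5 in the FGF8 libraries, the only member 2-fold higher at day 3, on few counts.

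Of 10 Eph receptors, 5 were at least 2-fold lower at day 0 (11.4% of all genes), 5 at day 3 (12.9%) and 6 at day 9 (9.75%) irrespective of the mean of the pair, and Epha2 alone was 2-fold higher at day 0 (7.61%). Ephb3 (chr16:21023495-21042057, plus strand) had 1304, 1091 and 577 in the untreated libraries and 534, 326 and 211 in the FGF8 libraries. Every FGF8 library was below the 3 untreated libraries, and the log2 fold changes were -1.29, -1.74 and -1.44. Ephb1 (chr9:101799327-102231898, minus strand), a receptor of ephrin-B ligands, had 82.3, 537 and 1142 in the untreated libraries and 0, 313 and 306 in the FGF8 libraries. At day 0 there were 56 counts without and 0 with FGF8, so it was at least 21.4-fold lower against a floor of 3 counts. At day 9 its log2 fold change was -1.89 (95% counting interval -2.06 to -1.74). Ephb2, another ephrin-B receptor, had 1088, 663 and 593 in the untreated libraries and 481, 663 and 282 in the FGF8 libraries, lower at days 0 and 9 and equal at day 3. Ephb4, the ephrin-B2 receptor of veins, was the most abundant Eph receptor at day 0 with 62.5 TPM untreated and 46.8 TPM with FGF8, and its log2 fold changes were -0.46, -0.59 and -0.69.

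Epha4, which binds both classes of ephrin, had 126, 12.7 and 7.1 in the untreated libraries and 9.0, 5.6 and 0 in the FGF8 libraries. Its log2 fold change was -3.68 (95% counting interval -5.17 to -2.71) at day 0. At day 3 it was -1.05 (95% counting interval -2.72 to 0.31), on 10 counts untreated and 8 with FGF8. At day 9 Epha4 had 10 counts untreated and 0 with FGF8, at least 2.91-fold lower. Epha7, an ephrin-A receptor, had 103, 160.4 and 87.3 in the untreated libraries and 37.1, 64.6 and 74.0 in the FGF8 libraries, with 2-fold lower values at days 0 and 3. Epha3, a further ephrin-A receptor, was lower in 3 of 3 pairs and past 2-fold at day 9 (-0.88, -0.53 and -1.17). Epha1 (-0.91, -1.53 and -1.23) and Ephb6, a receptor without kinase activity (-0.81, -0.81 and -0.74), were below untreated in each pair without passing the 2-fold rule at a mean of 20. Epha1 shares 1456 exon bases with Zyx on the other strand, and Ephb6 shares 1112 with Trpv6.

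Ephrins stayed within 2-fold in nearly all pairs, with medians of 0.04, -0.35 and -0.20 over 8 members. Efnb2, the arterial ligand of Ephb4, had 1008, 354 and 140.5 in the untreated libraries and 1920, 251 and 116 in the FGF8 libraries, and its log2 fold change at day 0 was 0.93 (95% counting interval 0.80 to 1.06), just inside the 2-fold rule. Efnb1, a transmembrane ephrin, had 667, 696 and 794 in the untreated libraries and 324, 602 and 728 in the FGF8 libraries, just past 2-fold lower at day 0, at -1.04 (95% counting interval -1.27 to -0.82). Efna3 was 2-fold lower at day 9, at -1.19 (95% counting interval -1.95 to -0.54), on 47.6 against 20.3 normalized counts. Efna1, the ligand of Epha2, had 182, 68.7 and 75.2 in the untreated libraries and 236, 36.5 and 42.3 in the FGF8 libraries, and no pair passed 2-fold. Efna5, an ephrin with a lipid anchor, had 332, 713 and 786 in the untreated libraries and 401, 941 and 799 in the FGF8 libraries, above untreated by less than 2-fold in each pair, and Efna2, Efna4 and Efnb3 did not pass 2-fold.

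Slit2 and Slit3 were abundant and lower with FGF8. Slit3 (chr11:35011789-35602786, plus strand) had 2819, 11808 and 5461 in the untreated libraries and 1105, 3994 and 972 in the FGF8 libraries. Each FGF8 library was below its untreated counterpart, at -1.35 (95% counting interval -1.47 to -1.23), -1.56 (95% counting interval -1.61 to -1.52) and -2.49 (95% counting interval -2.58 to -2.40) on the log2 scale. Slit2 (chr5:48140480-48465075, plus strand) had 7112, 2589 and 1183 in the untreated libraries and 4424, 1120 and 467 in the FGF8 libraries, with log2 fold changes of -0.68, -1.21 and -1.34. Slit1 was low, at 4.4, 40.7 and 66.7 in the untreated libraries and 5.1, 35.1 and 91.1 in the FGF8 libraries, and no pair passed 2-fold. Among their receptors, Robo1 was described above, Robo2 had at most 16 counts, Robo3 at most 15 and Robo4 none in any library, where a count of 0 allows up to 3 counts.

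**Figure D3:**
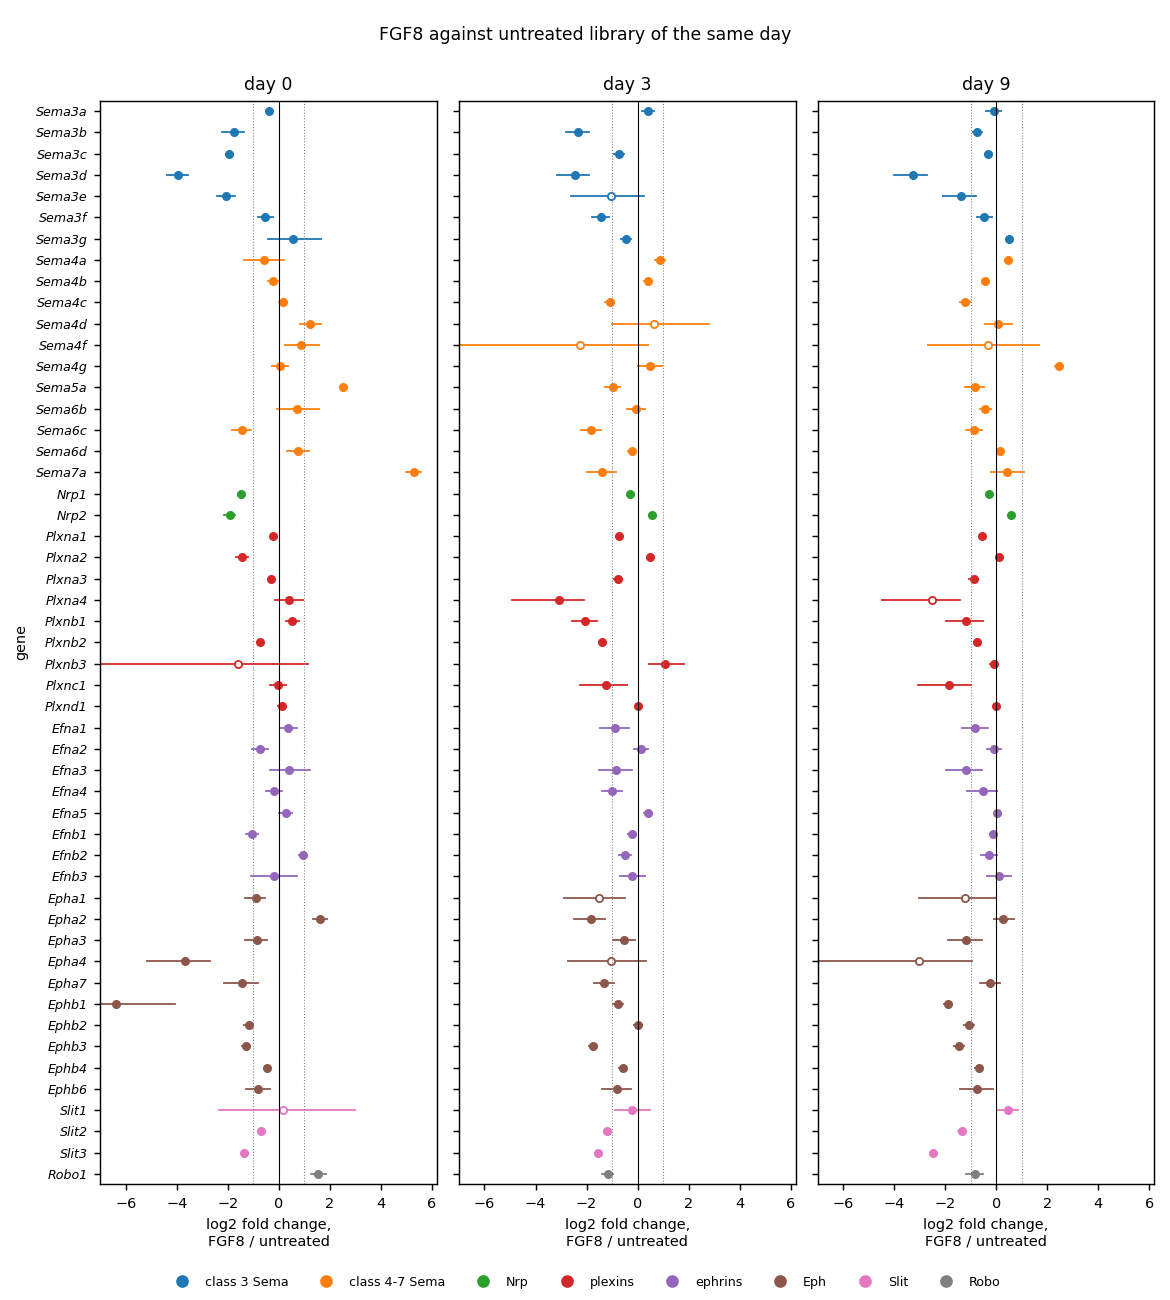
Log2 fold change of FGF8 against untreated (x axis) for the 51 members (rows, coloured by family) at days 0, 3 and 9, each point from 1 library per treatment, with bars for the 95% counting interval, open points where the mean of the pair is below 20 normalized counts and dotted lines at 2-fold. Bars that run past the axis are cut at its edge, and points at 0 counts depend on the pseudocount of 1. Sema7a lies at 5.28 at day 0 and at -1.38 at day 3, Slit3 and Ephb3 lie left of the 2-fold line on all 3 days, and Plxnd1 lies at 0.12, 0.02 and 0.00.

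The days 3 and 9, whose libraries were alike in the genes that set day 0 apart, were also fitted alone, with 1 residual degree of freedom per gene. In this fit of 50 members, edgeR called 17 lower with FGF8 (11.6% of all genes tested) and 3 higher (3.96%). The lower ones were Sema3b, Sema3d, Sema4c, Sema5a and Sema6c, the plexins Plxna1, Plxna3, Plxna4, Plxnb1, Plxnb2 and Plxnc1, the Eph receptors Ephb1, Ephb3 and Ephb4, and Slit2, Slit3 and Robo1. By edgeR, Slit3 was at -2.05 ± 0.23 (SE), adjusted p = 0.0015, and Slit2 at -1.30 ± 0.14 (SE), adjusted p = 0.00133. Plxnb2 was at -1.11 ± 0.20 (SE), adjusted p = 0.0108, and Ephb3 at -1.63 ± 0.19 (SE), adjusted p = 0.00165, by the same edgeR test. The higher ones were Nrp2 (0.54 ± 0.14 (SE), adjusted p = 0.0387), Sema4a (0.63 ± 0.16 (SE), adjusted p = 0.0335) and Sema4g (1.61 ± 0.44 (SE), adjusted p = 0.0447), again by edgeR. Each of these 20 members was on the same side of untreated in both pairs. Over the alternatives to the test of all 3 days, the adjusted p ran from 3.9e-08 to 1 for Slit3, from 6.6e-05 to 1 for Slit2, from 0.00075 to 1 for Plxnb2, from 2.5e-09 to 1 for Ephb3, from 0.039 to 1 for Nrp2, from 0.033 to 1 for Sema4a and from 0.045 to 1 for Sema4g.

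Changes over the days were tested with treatment as a block. Those against day 0 cannot be told apart from a possible difference in the source of the cells, which no label names. Against day 0, edgeR called 13 of 52 members higher at day 3 (26.2% of all genes) and 15 lower (19.8%), and at day 9 it called 12 higher (29.2%) and 22 lower (24.8%). The largest increases to day 9 by edgeR were those of Plxnb3 (7.75 ± 0.69 (SE), adjusted p = 0.00236), Sema3g (6.62 ± 0.40 (SE), adjusted p = 0.00169) and Sema4a (5.39 ± 0.41 (SE), adjusted p = 0.00193). The largest decreases were those of Sema7a (-5.84 ± 1.9 (SE), adjusted p = 0.0492), which rests on the FGF8 library of day 0, Sema5a (-4.68 ± 1.1 (SE), adjusted p = 0.0184) and Epha1 (-4.28 ± 0.44 (SE), adjusted p = 0.00303). Slit2 fell by 2.88 (adjusted p = 0.00195, edgeR), while Slit3 was higher at day 3, at 2.01 ± 0.31 (SE), adjusted p = 0.00888, and did not pass at day 9. Plxnd1 rose to day 3 by 2.08 ± 0.15 (SE), adjusted p = 0.00266, and remained above day 0 at day 9, at 1.5 ± 0.15 (SE), adjusted p = 0.0027, by edgeR.

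From day 3 to day 9, edgeR with all 6 libraries called 0 members higher (0.0618% of all genes) and 0 lower (0.00686%). At an unadjusted p under 0.05 there were 10 and 11 (11% and 10.3% of all genes). DESeq2 called 7 members higher and 7 lower, with its share of all genes not computed. Without the day 0 libraries, edgeR called 9 of 50 higher (11% of all genes) and 14 lower (10.2%). The higher ones were Plxnb3, Sema4d, Sema4g, Sema3g, Sema3b, Sema3e, Sema4a, Sema3c and Sema6b, 8 semaphorins and 1 plexin. By edgeR, Plxnb3 was at 3.94 ± 0.30 (SE), adjusted p = 0.000302, Sema3g at 2.46 ± 0.25 (SE), adjusted p = 0.000814 and Sema4a at 1.68 ± 0.16 (SE), adjusted p = 0.000662. The lower ones were Slit2, Slit3, Robo1, Nrp1, Plxna1, Plxna3, Plxnb1, Plxnd1, Epha3, Ephb3, Efna4, Efnb2, Sema3a and Sema5a, with Slit3 at -1.60 ± 0.23 (SE), adjusted p = 0.00333 and Slit2 at -1.22 ± 0.14 (SE), adjusted p = 0.00145, by edgeR. Over the alternatives to this contrast, the adjusted p ran from 2e-11 to 0.19 for Plxnb3, from 1.9e-09 to 0.19 for Sema3g, from 0.00056 to 0.25 for Sema4a, from 0.00049 to 0.63 for Slit3 and from 0.00063 to 0.51 for Slit2. The summed preadipocyte, mural, Schwann and neural, and proliferation markers were also lower at day 9 than at day 3 in both treatments, and their part in the decreases was not tested.

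**Figure D4:**
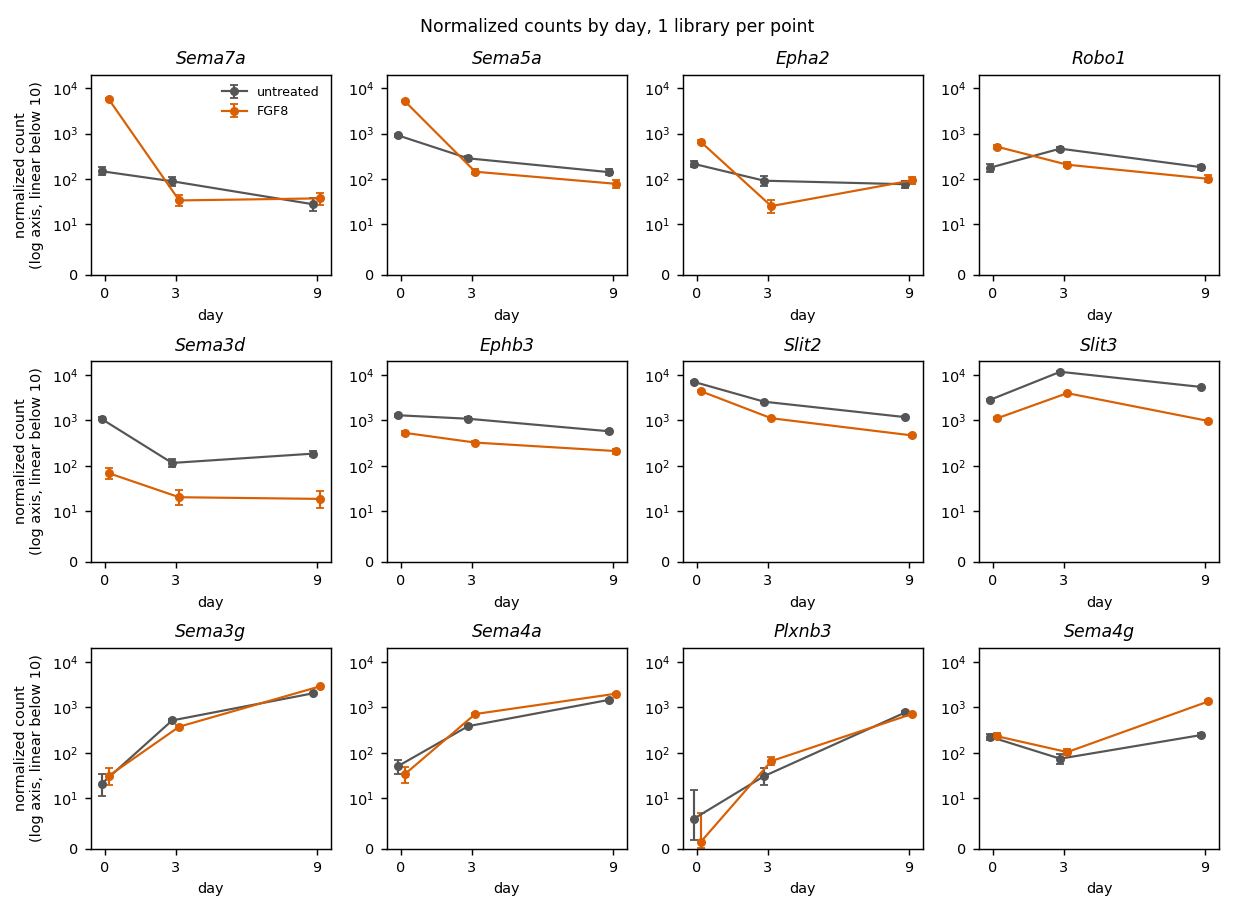
Normalized counts (log axis, linear below 10) against day for 12 members in untreated (grey) and FGF8 (orange) cells, 1 library per point, with bars for the 95% Poisson counting interval and points set slightly apart at each day. Sema7a, Sema5a, Epha2 and Robo1 cross between day 0 and day 3, Sema3d, Ephb3, Slit2 and Slit3 keep the FGF8 line below the untreated line, and Sema3g, Sema4a and Plxnb3 climb in both treatments.

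Other genes of guidance pathways were taken from lists chosen with earlier results of these data known. Of 19 netrin, RGM and FLRT genes, 14 were tested with edgeR, and 1 passed over the 3 days (1.25% of all genes lower), Unc5c, a repulsive netrin receptor, at -2.21 with adjusted p = 0.0429 by edgeR. At day 0, 3 of 11 in this list were 2-fold higher (7.27% of all genes) and 3 lower (10.8%). Ntn1, the founding netrin, had 818 against 2936 normalized counts at day 0, its receptor Unc5b had 424 against 1507 and Rgmb, a ligand of neogenin, had 1156 against 4113, untreated against FGF8. At day 3, 6 of 13 were lower (12.1% of all genes) and 0 higher (3.8%), and at day 9, 5 of 13 were lower (8.74%) and 1, Flrt1, was higher (1.12%).

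Of 26 intracellular effectors, 24 were tested with edgeR, and 1 passed over the 3 days (1.25% of all genes lower), Srgap3, a GTPase-activating protein that binds Robo, at -1.78 with adjusted p = 0.0429 by edgeR. Its relative Srgap1 was at -1.73, -2.38 and -1.20 on the 3 days. Vav3, an exchange factor that acts below Eph receptors, had 129 against 963 normalized counts at day 0, and Rasa1, a Ras GTPase-activating protein, had 2670 against 10253. At day 0, 3 of 24 effectors were 2-fold higher and 2 lower (7.27% and 10.8% of all genes), shares near those of all genes. At day 3, 7 of 22 were lower and 0 higher (12.1% and 3.8% of all genes), and at day 9, 4 of 22 were lower and 0 higher (8.74% and 1.12%). Of 9 partners outside the families, 7 were tested with edgeR over the 3 days, with a smallest adjusted p of 0.102, that of Kdr. At day 0, 2 of the 7 were 2-fold higher and 2 lower (7.27% and 10.8% of all genes). At day 3, 2 of 7 were lower and 0 higher (12.1% and 3.8% of all genes). At day 9, 1 of 6 was lower and 0 higher (8.74% and 1.12%). Kdr, the VEGF receptor that pairs with Nrp1, had 1288 against 7.7 normalized counts at day 0, where Nrp1 was lower too, and Vegfa had 978 against 4102. Itga1, an integrin subunit that pairs with beta1 in a Sema7a receptor, had 405 against 111.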

How the data were processed

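Bulk RNA of 6 libraries was sequenced, 1 per treatment and day, and groups were taken from the sample labels. Per the methods, the authors trimmed reads with Trim Galore, aligned them to GRCm39 (mm39) with HISAT2, obtained raw counts per gene with featureCounts, which they deposited. Tool versions, annotation, strand setting and the treatment of multi-mapped reads are not given in the sources used here.

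Counts were divided by the median-of-ratios size factors of DESeq2 (1.42.0). Fold changes are FGF8 minus untreated on the scale of log2(normalized count + 1), within a day, and their 95% exact binomial (Clopper-Pearson) intervals, the Poisson intervals and the 3-count floor cover only counting error. They are narrow for abundant genes and wide for genes with few counts, as total counts ran from 16403254 to 38551551. Members were counted at 2-fold where the pair averaged 20 or more normalized counts, and over all 3 pairs where the 6 libraries did. TPM used the canonical transcript lengths of GENCODE M39, matched for 23698 symbols (90.2%).

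The test was the quasi-likelihood test of edgeR (4.0.16; TMM, filterByExpr, terms for day and treatment, 2 residual degrees of freedom, Benjamini-Hochberg adjustment over all genes tested, threshold 0.05), with standard errors from its F statistic. Its p-values measure the spread between these libraries, which may be technical. The steps were also run on simulated data in which the FGF8 effect did not vary between days. That run does not check the test for a response that varies between days. R 4.3.3, limma 3.58.1, Python 3.11.15, scipy 1.17.1 and pandas 2.3.3 were used. The alternatives were TMM, CPM and size factors of the pair, pseudocounts of 0.5 and 5, a minimum mean of 100, no filter, rules of 1.5-fold and 4-fold, DESeq2, RLE scaling, no day or treatment term, and leaving out each day.

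The members, the other gene lists and the marker lists were chosen with earlier results of these data known. Every member could be named, with values in each library for members called over the 3 days or 2-fold different at a pair mean of 100 or more. From the other lists, genes with the largest changes at that mean were named.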

Additional observations from a re-analysis of the deposited data

Results flagged for a closer look

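In 3 members the difference between FGF8 and untreated cells was at least 2-fold in opposite directions on different days. On the log2 scale Sema7a was at 5.28 at day 0 and -1.38 at day 3. Epha2 had 1.61 at day 0 and -1.82 at day 3. Robo1 had 1.55 at day 0 and -1.17 at day 3. With 1 library per condition, the difference between the days was not tested, and the day 0 libraries differ from the later ones, and from each other, in Xist and Ifi202b.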

How the results depend on the processing

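Of the fold changes of single members, 247 moved by less than their counting interval under another setting and 3 by more, those of Plxnb2, Slit2 and Slit3 at day 3 with CPM (counts scaled to the library total). In the fits, only members with an unadjusted p under 0.05 in the main fit of a contrast were compared. Of their values, 485 kept their direction and their side of the threshold, 71 gained a call and 39 lost one. None of these turned direction, but members outside this set did. Without the day 0 libraries, the log2 fold change with FGF8 went from 1.37 to -0.55 for Sema7a and from -0.22 to 0.54 for Nrp2.

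Counts of members within a day moved with the fold rule and the minimum mean. With the 1.5-fold rule, 9 were higher at day 0, 2 higher and 26 lower at day 3, and 2 higher and 21 lower at day 9. With the 4-fold rule, 2 were higher and 4 lower at day 0, 0 higher and 4 lower at day 3, and 2 lower at day 9. A mean of at least 100 gave 0 higher and 10 lower at day 3 and 7 lower at day 9. The 1 member higher at day 3, Plxnb3, dropped out with CPM (0) and with a pseudocount of 5 (0), and without a filter there were 2.

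Over the 3 days, DESeq2 called 12 members lower and the fit without a filter on low counts 4, in each case with Sema3d and Ephb3 among them, and without the day block 0. Without the day 0 libraries there were 17 lower and 3 higher, and without those of day 3 or of day 9 there were 0 lower. For day 3 against day 0, the fit without day 9 called 7 higher. For day 9 against day 0, the fit without a treatment term called 14 lower. For day 9 against day 3, DESeq2 called 7 higher and 7 lower, no filter gave 2 higher, and without day 0 there were 9 higher and 14 lower. Dropping a day leaves fewer libraries, and the cause of the other shifts was not tested. Apart from the fit without day 0, shares of all genes were not computed for these alternative fits.

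The test over the 3 days already pairs the treatments within a day, and the labels carry no replicate numbers to pair by. Members with few counts, such as Plxna4 and Plxnb3 at day 3, have wide counting intervals, and differences between treatments on a day have no replicate error.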

Other observations

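Ligands and receptors of the same pair did not always differ alike between the treatments at day 0. Sema7a was at 5792 normalized counts with FGF8 against 148 untreated, while its receptor Plxnc1 had 257 against 263. Sema3e had 106 against 445, while its receptor Plxnd1 had 1077 against 992. Efnb2 had 1920 against 1008, while its receptor Ephb4 had 1594 against 2186. Other pairs differed alike: Sema3c had 1201 against 4674, and its receptors Nrp1 and Nrp2 had 2632 against 7294 and 273 against 1041.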
